A study of Homo sapiens with 11 samples.

Results

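The BCL2 family decides whether the outer membrane of mitochondria is opened during apoptosis. Survival proteins such as BCL2, BCL2L1 (BCL-XL) and MCL1 hold the pore-forming effectors BAX and BAK1 in check. BH3-only proteins, among them BID, BAD, BBC3 (PUMA), PMAIP1 (NOXA) and BCL2L11 (BIM), relieve that block or activate the effectors, after which cytochrome c leaves the mitochondrion and caspases are activated. The 10 genes just named were listed by name, BCL2 because it has been reported as a target of miR-365a. The others were listed as its better measured relatives, so signal on these arrays was part of the choice. They are 10 of the 31325 gene symbols measured, and all 10 matched a current gene entry.

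mRNA was measured on 11 Illumina BeadChip arrays in 4 groups. MDA-MB-231, a triple-negative breast cancer line, was transfected with a miR-365a-3p mimic (n = 3) or a control miRNA (n = 3), and SKOV3, an ovarian cancer line, was transfected with the same mimic (n = 3) or control miRNA (n = 2). The sample labels give 48 h for the mimic, whereas the series' design text gives 24 h. The labels call the ovarian line SKOV3, whereas the paper that reported these arrays names SKOV3.ip1. All groups were transfected, each cell line is a single established line, and no untransfected cells were used here.

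The labels number the replicates but do not say whether they came from separate cultures, so the p-values measure only the spread between these arrays. The arrays carry RNA of whole cultures, in which fewer cells with a message and less message per cell cannot be told apart. In control MDA-MB-231 cells VIM and CAV1 stood at 13.79 and 12.07, and ESR1 and CDH1 at 7.28 and 7.27, on a log2 scale whose median over all genes lay between 7.35 and 7.41 in the deposited values of the arrays. ERBB2, which SKOV3 carries amplified, was 10.86 in control SKOV3 and 7.61 in control MDA-MB-231. CDH1, also a SKOV3 marker, stood at only 7.43 in control SKOV3. The leukocyte marker PTPRC exceeded only 6.20% of all genes in control MDA-MB-231 and 14.3% in control SKOV3. In the deposited values the endothelial marker PECAM1 differed by 0.03 between the control lines. On the same values the fibroblast marker COL1A1 was 1.27 higher in control SKOV3 than in control MDA-MB-231. With miR-365a-3p, deposited COL1A1 was lower by 0.14 in MDA-MB-231 and by 1.36 in SKOV3. Deposited LUM, also a fibroblast marker, was higher with miR-365a-3p by 0.31 (limma adjusted p = 0.104) and 0.59 (adjusted p = 0.0161).

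The deposited arrays did not share a distribution. The 75th percentile of the deposited values was 7.91 ± 0.037 (SD, n = 3) in control and 7.62 ± 0.051 (n = 3) in miR-365a-3p MDA-MB-231, and 8.01 ± 0.043 (n = 2) in control and 7.74 ± 0.065 (n = 3) in miR-365a-3p SKOV3. It was therefore lower on every miR-365a-3p array than on every control array of the same line. Values below were quantile normalized across the arrays, and for the family genes both are given where the deposited values without that step gave another call. Log2 differences are on the scale of the normalized values unless called deposited, and the transformation that preceded deposition is not given in the sources used here. A gene was called where limma's Benjamini-Hochberg adjusted p over all 31325 symbols was under 0.05.

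The mimic's mature sequence from RefSeq (GRCh38.p14, chr16:14309340-14309361, plus strand) is shown because every comparison of miR-365a-3p with control below rests on it. Its seed, bases 2 to 8, is in capitals.
hsa-miR-365a-3p: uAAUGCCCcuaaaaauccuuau
The mature hsa-miR-365b-3p, encoded at chr17:31575478-31575499, is identical over its 22 nucleotides, and these were the only 2 of 2370 mature miRNA names that held this seed. Transcript sites for the seed were not analysed here. Of the reported targets of this miRNA, HDAC4, a histone deacetylase, fell by 1.08 on the log2 scale in MDA-MB-231 (adjusted p = 9.16e-05) and by 0.75 in SKOV3 (adjusted p = 0.00208). CCND1, cyclin D1, fell by 2.09 in MDA-MB-231 (adjusted p = 0.00258), and its SKOV3 difference was -0.78 (adjusted p = 0.289).

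With miR-365a-3p, the BH3-only genes PMAIP1 and BID and the effector BAK1 rose in both lines, and the 3 survival genes fell in MDA-MB-231. In MDA-MB-231, 4 genes rose (BAK1, BID, BAD, PMAIP1), 3 fell (BCL2, BCL2L1, MCL1) and 3 were not called, where 14.4% of all genes rose and 11.7% fell. In SKOV3, 3 genes rose (BAK1, BID, PMAIP1), none fell and 7 were not called, where 7.25% of all genes rose and 7.11% fell. None of the 10 fell in SKOV3 at an unadjusted p under 0.05 either, and 3 were called lower on the deposited values. BAK1, BID and PMAIP1 were called in the same direction in both lines, as were 11.2% of all genes. The median size of the log2 difference, without its sign, was 0.41 over the 10 genes and 0.04 over all genes in MDA-MB-231, and 0.13 and 0.04 in SKOV3. The signed median was 0.05 in MDA-MB-231 and 0.11 in SKOV3, against 0.01 over all genes in each. These shares and medians over all genes were not matched for signal, although signal was part of the choice of the relatives. Only 6853 of all genes had a mean above 8 over the arrays. In control MDA-MB-231, BCL2L11 exceeded 33.9% of all genes, BCL2 63.3%, and the others 70.6% (BAX) to 95.8% (BCL2L1).

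The scaling changed which genes were called. On the deposited values, BID and PMAIP1 rose and BCL2, BCL2L1, MCL1 and BAX fell in MDA-MB-231, where 7.26% of all genes rose and 17.9% fell. On the same values PMAIP1 rose and BCL2, BAX and BBC3 fell in SKOV3, where 3.83% of all genes rose and 14% fell. The rise of PMAIP1 in both lines, the rise of BID in MDA-MB-231 and the falls of BCL2, BCL2L1 and MCL1 in MDA-MB-231 were thus called on both scalings. Under another scaling, cyclic loess within each line, the PMAIP1 call in SKOV3 was lost (0.71, adjusted p = 0.0525), as it was with each line fitted alone (adjusted p = 0.0974). The rises of BAK1 in both lines, of BID in SKOV3 and of BAD in MDA-MB-231 were called after quantile normalization and under cyclic loess. They were not called on the deposited values or with arrays centred on the median. With that centring the adjusted p was 0.908 in MDA-MB-231 and 0.136 in SKOV3 for BAK1, 0.152 for BID and 0.106 for BAD.

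**Figure D1:**
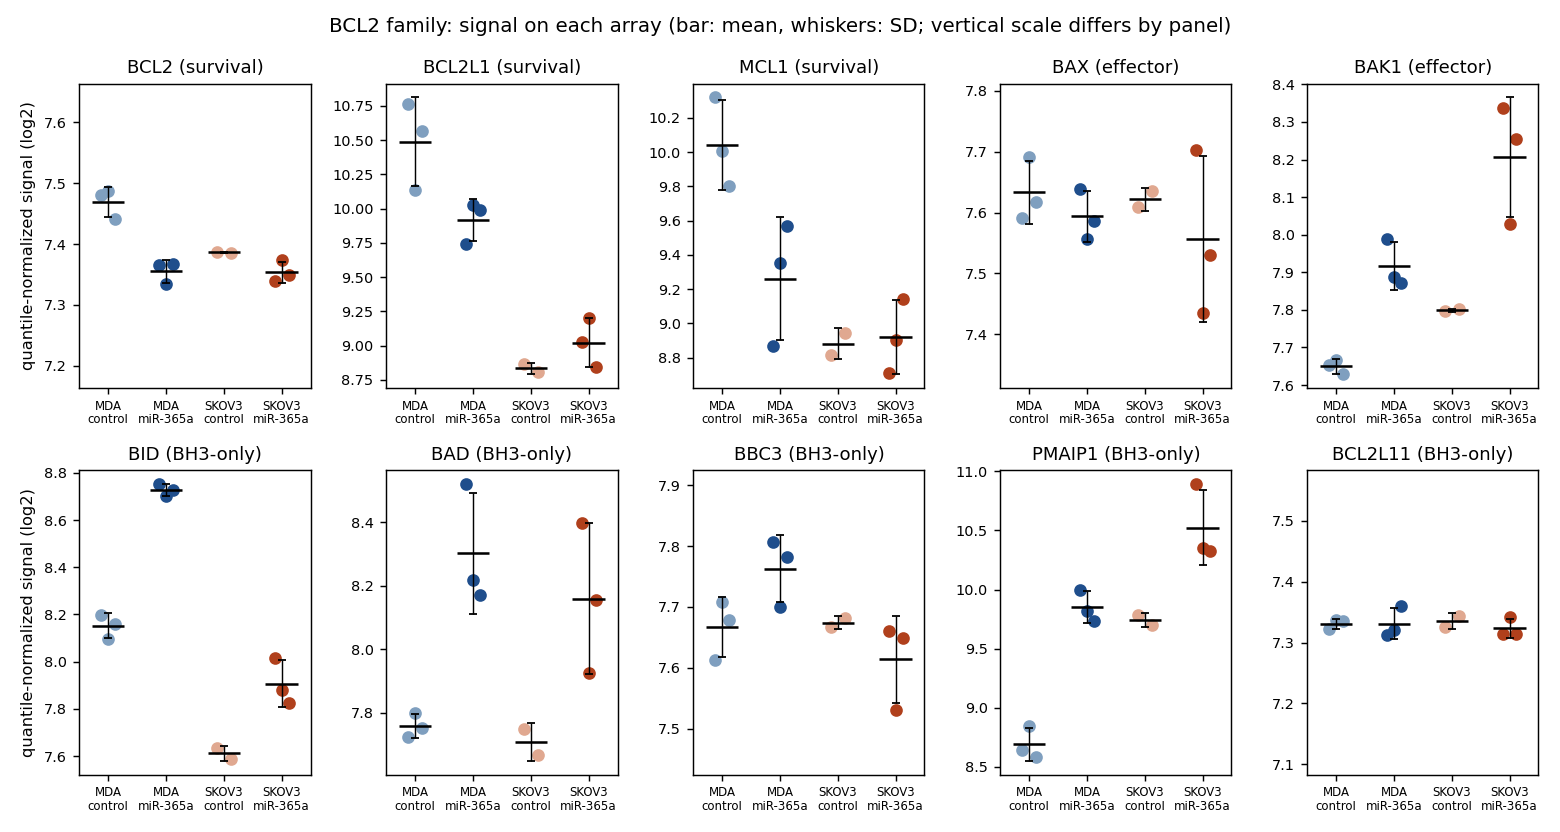
Quantile-normalized log2 signal of the 10 BCL2 family genes on each of the 11 arrays, 1 panel per gene with its own vertical scale. Points are arrays, bars are group means and whiskers are SDs. On these normalized values PMAIP1, BID, BAK1 and BAD are higher on every miR-365a-3p array than on every control array of the same line. The share of all genes separated in this way was not determined. BCL2L11 lies near 7.33 in all groups.

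Among the survival genes, MCL1 changed most in MDA-MB-231. MCL1, a short-lived protein that binds BAK1 and BCL2L11, gave 10.32, 10.01 and 9.80 on the control arrays and 8.87, 9.35 and 9.57 on the miR-365a-3p arrays. All 3 miR-365a-3p arrays were below all 3 control arrays, and MCL1 fell by 0.78 on the log2 scale (SE 0.196, 1.72-fold lower, adjusted p = 0.0172). The adjusted p was 0.0601 without control replicate 1, 0.0502 with each line fitted alone and 0.0948 with replicate number as a block. In SKOV3, MCL1 gave 8.82 and 8.94 in control cells and 8.71, 8.90 and 9.14 with miR-365a-3p. These groups overlapped, and the difference was 0.04 with a 95% interval of -0.46 to 0.54 (adjusted p = 0.965). It was -0.18 on the deposited values, so its sign was not fixed.

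BCL2L1 encodes BCL-XL, which is anchored in the outer mitochondrial membrane and sequesters BH3-only proteins and the effectors. It gave 10.76, 10.13 and 10.57 in control MDA-MB-231 and 9.74, 10.02 and 9.99 with miR-365a-3p. The groups did not overlap, and BCL2L1 fell by 0.57 (SE 0.159, 1.49-fold lower, adjusted p = 0.0274). The call was lost without control replicate 1 (adjusted p = 0.0860) or 3 (adjusted p = 0.0918) and without miR-365a-3p replicate 1 (adjusted p = 0.0976) or 3 (adjusted p = 0.0513), with the difference between -0.75 and -0.44. It was also lost with each line fitted alone (adjusted p = 0.07) and with replicate number as a block (adjusted p = 0.106). In SKOV3 the control arrays gave 8.86 and 8.80 and the miR-365a-3p arrays 9.03, 9.20 and 8.84. They overlapped, with a difference of 0.19 and an interval of -0.22 to 0.59 (adjusted p = 0.662).

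BCL2, the founding survival gene of the family, was measured near the floor. Its control mean in MDA-MB-231 exceeded 63.3% of all genes and that in SKOV3 exceeded 53.3%. In MDA-MB-231 it gave 7.48, 7.49 and 7.44 in control cells and 7.37, 7.33 and 7.37 with miR-365a-3p. The arrays did not overlap, and BCL2 fell by 0.11 (SE 0.0199, adjusted p = 0.00284). In SKOV3 both control arrays gave 7.39 and the miR-365a-3p arrays 7.34, 7.37 and 7.35. These too did not overlap, but the difference of -0.03 was not called (SE 0.0222, adjusted p = 0.484). On the deposited values it was -0.07 and was called (adjusted p = 0.0497). An exact two-sided permutation of treatment within the lines, over 200 arrangements with a smallest possible p of 0.005, gave p = 0.01 for BCL2, p = 0.09 for MCL1 and p = 0.29 for BCL2L1 on the mean of both lines' differences. Near the floor of an array a log2 difference understates a change in message, and depth in reads does not apply.

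**Figure D2:**
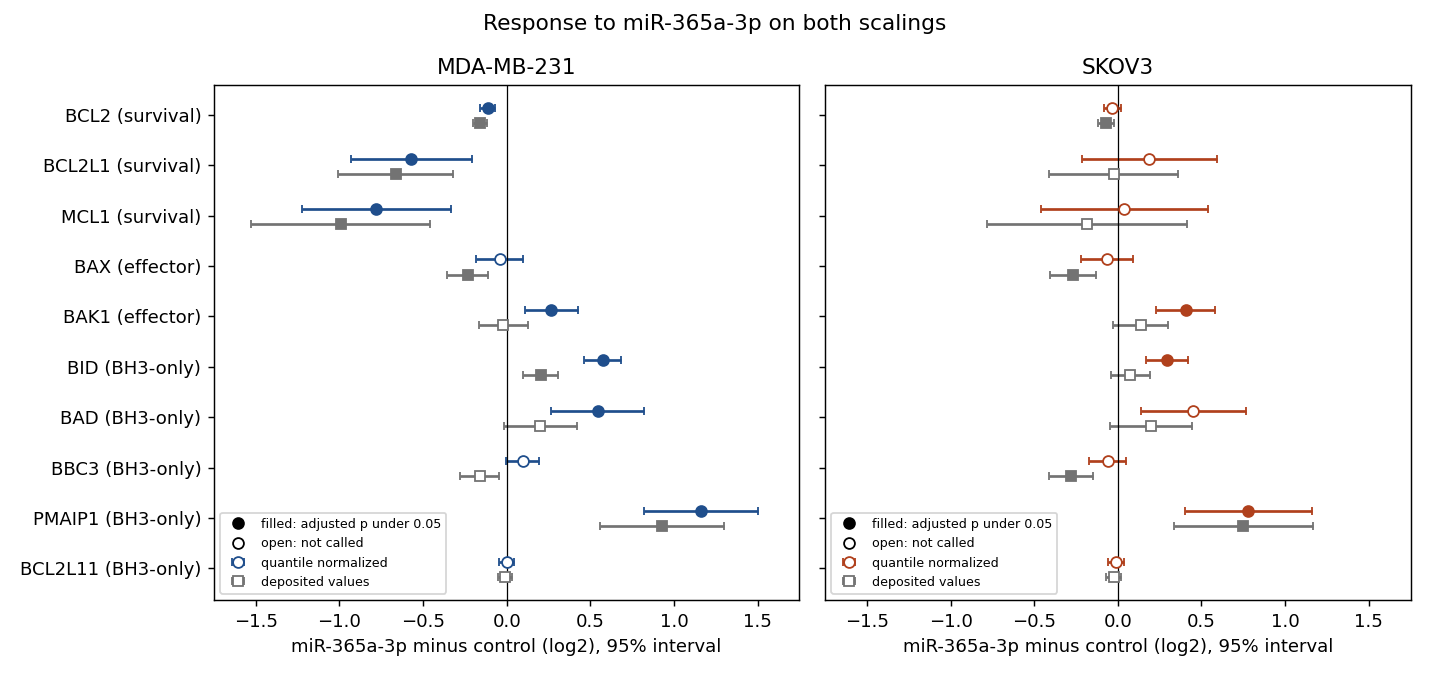
Log2 difference between miR-365a-3p and control for each BCL2 family gene in MDA-MB-231 (left) and SKOV3 (right), with 95% intervals. Circles are quantile-normalized values, squares are deposited values and filled symbols passed an adjusted p of 0.05; PMAIP1 is filled on the right of 0 on both scalings in both lines, while BAK1 is filled only for normalized values.

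The 2 effectors, BAX and BAK1, form the pores through which mitochondrial proteins escape. BAK1, which resides on the mitochondrion, gave 7.65, 7.67 and 7.63 in control MDA-MB-231 and 7.99, 7.89 and 7.87 with miR-365a-3p. In SKOV3 it gave 7.80 on both control arrays and 8.34, 8.03 and 8.25 with miR-365a-3p. No groups overlapped within a line, and BAK1 rose by 0.27 in MDA-MB-231 (SE 0.0693, adjusted p = 0.0202) and by 0.41 in SKOV3 (SE 0.0775, adjusted p = 0.00869). Before that normalization the differences were -0.02 (adjusted p = 0.883) and 0.14 (adjusted p = 0.277). The exact permutation p over both lines was 0.01 after normalization and 0.405 on the deposited values. The normalized call in MDA-MB-231 was lost without miR-365a-3p replicate 1 (adjusted p = 0.0681) and without any 1 of the 3 controls (adjusted p = 0.0508 to 0.0704). That in SKOV3 was lost without control replicate 1 (adjusted p = 0.0655) or 2 (adjusted p = 0.0703).

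BAX, which moves from the cytosol to mitochondria when activated, gave 7.59 to 7.69 in control MDA-MB-231 and 7.56 to 7.64 with miR-365a-3p. In SKOV3 it gave 7.61 and 7.63 in control cells and 7.70, 7.44 and 7.53 with miR-365a-3p. The groups overlapped in both lines, and the differences of -0.04 (interval -0.18 to 0.10) and -0.07 (interval -0.22 to 0.09) were not called. In the deposited values BAX fell by 0.23 in MDA-MB-231 (adjusted p = 0.0114) and by 0.27 in SKOV3 (adjusted p = 0.0143). With arrays centred on the median it was also called lower in MDA-MB-231 (-0.201, adjusted p = 0.0209) and SKOV3 (-0.231, adjusted p = 0.0271).

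PMAIP1 had the largest rise of the 10 genes in each line. Its protein NOXA binds MCL1 in particular. PMAIP1 gave 8.64, 8.85 and 8.58 in control MDA-MB-231 and 10, 9.82 and 9.74 with miR-365a-3p. The 3 values with the mimic all exceeded the 3 control values, and the rise was 1.16 (SE 0.149, 2.24-fold, adjusted p = 0.000607). In SKOV3 the control arrays gave 9.79 and 9.70 and the miR-365a-3p arrays 10.89, 10.35 and 10.33. The groups again did not overlap, and the rise was 0.78 (SE 0.166, 1.72-fold, adjusted p = 0.0147). The exact permutation p over both lines was 0.005, the smallest it can give. Without further normalization PMAIP1 rose by 0.93 (adjusted p = 0.00313) and 0.75 (adjusted p = 0.0222). The SKOV3 call was lost without control replicate 1 (difference 0.83, adjusted p = 0.0755) or 2 (0.74, adjusted p = 0.121).

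BID links death receptors to mitochondria, since caspase 8 cleaves it into an active fragment. BID gave 8.20, 8.09 and 8.16 in control MDA-MB-231 and 8.75, 8.70 and 8.73 with miR-365a-3p. The groups lay apart by more than their spread, and BID rose by 0.57 (SE 0.0484, 1.49-fold, adjusted p = 7.39e-05). In SKOV3 it gave 7.63 and 7.59 in control cells and 8.02, 7.88 and 7.82 with miR-365a-3p. There it rose by 0.29 (SE 0.0542, adjusted p = 0.00737), again without overlap. Without SKOV3 control replicate 2 the adjusted p was 0.0819. The exact permutation p over both lines was 0.005 on both scalings, and the deposited differences were 0.20 in MDA-MB-231 (adjusted p = 0.0107) and 0.07 in SKOV3 (adjusted p = 0.432).

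BAD, which binds BCL2 and BCL-XL unless it is phosphorylated, gave 7.72, 7.80 and 7.75 in control MDA-MB-231 and 8.52, 8.22 and 8.17 with miR-365a-3p. It rose by 0.54 (SE 0.122, 1.46-fold, adjusted p = 0.0103), with no overlap. In SKOV3 it gave 7.75 and 7.67 in control cells and 8.40, 7.93 and 8.15 with miR-365a-3p. All 3 were above both controls, but the difference of 0.45 was not called (SE 0.137, adjusted p = 0.0621). It was called without SKOV3 miR-365a-3p replicate 2 (adjusted p = 0.0162) and without MDA-MB-231 miR-365a-3p replicate 1 (adjusted p = 0.0356). With all arrays kept, it was called with array weights (0.44, adjusted p = 0.00476) and with an intensity trend and robust variance model (adjusted p = 0.0251). Keeping only genes with a mean above the median of all genes' means also called it (adjusted p = 0.0332). The other alternatives with all arrays did not. In the deposited values the difference was 0.20 in each line and was called in neither (adjusted p = 0.190 and 0.289).

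BBC3 and BCL2L11, both strong activators of the effectors, were not called in either line after quantile normalization. BBC3 gave 7.61 to 7.71 in control MDA-MB-231 and 7.70 to 7.81 with miR-365a-3p, a difference of 0.10 (interval -0.0020 to 0.19, adjusted p = 0.157). In SKOV3 it gave 7.67 and 7.68 in control cells and 7.66, 7.53 and 7.65 with miR-365a-3p, all below the controls, a difference of -0.06 (adjusted p = 0.570). The deposited values gave -0.16 in MDA-MB-231 (adjusted p = 0.0523) and a fall of 0.28 in SKOV3 that was called (adjusted p = 0.00970). With arrays centred on the median BBC3 was also called lower in SKOV3 (-0.245, adjusted p = 0.017). BCL2L11 lay between 7.31 and 7.36 on all 11 arrays, and its group means exceeded 28.5% to 36.0% of all genes. A change of BCL2L11 was not detectable at this signal.

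The promoter of PMAIP1, the gene with the largest rise, is shown from RefSeq (GRCh38.p14, chr18:59899746-59900045, plus strand), from 250 bases before to 50 after the start. Capitals mark GGGCGG and TGACG on either strand.
PMAIP1: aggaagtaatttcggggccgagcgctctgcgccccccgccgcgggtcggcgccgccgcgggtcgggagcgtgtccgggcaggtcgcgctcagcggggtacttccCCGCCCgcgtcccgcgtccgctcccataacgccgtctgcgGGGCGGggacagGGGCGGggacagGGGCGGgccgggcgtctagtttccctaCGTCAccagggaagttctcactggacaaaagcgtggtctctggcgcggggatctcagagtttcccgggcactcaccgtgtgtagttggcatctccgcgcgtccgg
This window held GGGCGG, the core of GC boxes, 4 times, and 45.0% of 35116 promoters of that length held it at least once. It held TGACG, the core of cyclic AMP response elements, once, as did 24.6% of all promoters at least once. Of the 9 family genes with a promoter entry, 7 held GGGCGG and 5 held TGACG. A gene counted if any of its windows held the motif, and some genes had more than 1 window. These counts are therefore not on the same scale as the shares of single promoters. The longer TGACGTCA was in 0 of the 9 genes and in 1.8% of all promoters. The median GC content was 68.7% over the family's windows and 58.7% over all promoters. Over the 11 arrays, the genes most like PMAIP1 among 6852 with a mean above 8 were WRB (r = 0.995), ITGB3BP (r = 0.993) and CCDC23 (r = 0.993). The arrays share cell line and treatment, so these correlations describe the order of the 4 groups as well as the spread within them.

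The control cells of the lines already differed in the family. SKOV3 had lower BCL2L1, MCL1, BID and BCL2 and higher PMAIP1 mRNA than MDA-MB-231, that is 1 gene higher and 4 lower, where 8.34% of all genes were higher and 7.76% lower. BCL2L1 was 3.15-fold lower in SKOV3 (log2 difference -1.65, SE 0.178, adjusted p = 0.000267). MCL1 was 2.24-fold lower (-1.16, SE 0.219, adjusted p = 0.00623), but the adjusted p was 0.0617 without SKOV3 control replicate 1. BID was 1.45-fold lower (-0.54, SE 0.0542), and BCL2 differed by only -0.08 (adjusted p = 0.0342). PMAIP1 was 2.08-fold higher (1.05, SE 0.166, adjusted p = 0.00240).

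The BCL2 difference lost its call without MDA-MB-231 control replicate 1 (adjusted p = 0.0898) or 2 (0.107), SKOV3 control replicate 1 (0.175) or 2 (0.192), or SKOV3 miR-365a-3p replicate 3 (0.0555). With miR-365a-3p the MDA-MB-231 means of BCL2L1 and MCL1 were 9.92 and 9.26, compared with 8.83 and 8.88 in control SKOV3. BAX, BAD and BBC3 differed between the control lines by -0.01, -0.05 and 0.01, none called. BAK1 was 0.15 higher in SKOV3 without a call (adjusted p = 0.306), and on the deposited values it was called at 0.28 (adjusted p = 0.0256). Cell line and any culture or array batch cannot be told apart here.

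**Figure D3:**
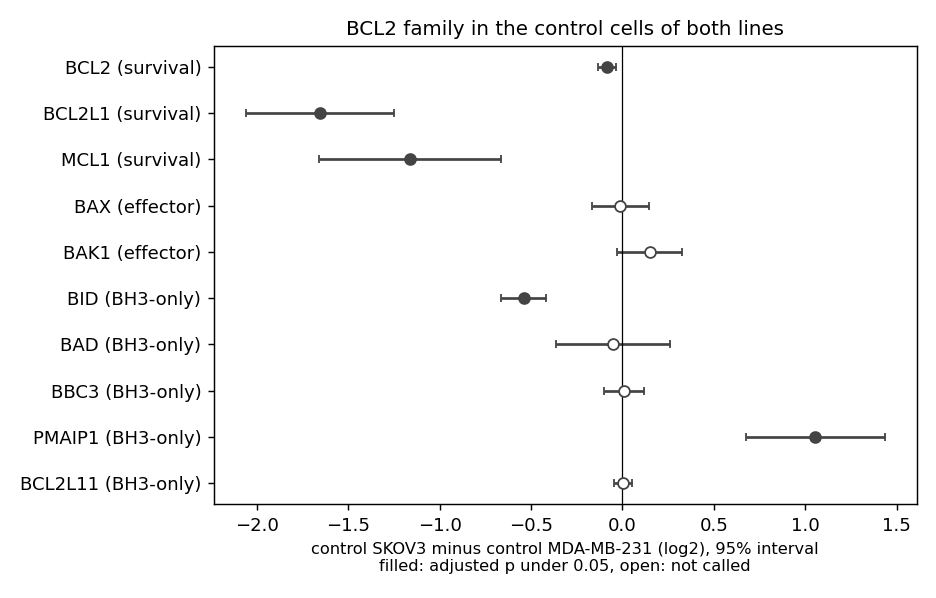
Log2 difference of each BCL2 family gene between control SKOV3 (n = 2) and control MDA-MB-231 (n = 3), with 95% intervals from limma. Filled points passed an adjusted p of 0.05; BCL2L1, MCL1, BID and BCL2 lie left of 0 and PMAIP1 right of it.

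Whether the responses themselves differed between the lines was tested by their difference, SKOV3 minus MDA-MB-231. None of the 10 genes passed limma's adjusted threshold, where 2.54% of all genes did. At an unadjusted p under 0.05 there were 5, BCL2, BCL2L1, MCL1, BID and BBC3, where 12.8% of all genes lay under that value. The difference was 0.76 for BCL2L1 (SE 0.238, interval 0.22 to 1.30, adjusted p = 0.188) and 0.82 for MCL1 (SE 0.294, interval 0.15 to 1.49, adjusted p = 0.262). For BID it was -0.28 (SE 0.0727, adjusted p = 0.105), or -0.13 in the deposited values (adjusted p = 0.497), and for PMAIP1 it was -0.38 (interval -0.89 to 0.13, adjusted p = 0.558). The BID difference was called with array weights (-0.33, adjusted p = 0.0122) and without SKOV3 miR-365a-3p replicate 1 (-0.33, adjusted p = 0.0156). The BCL2L1 difference was called without MDA-MB-231 control replicate 2 (0.94, adjusted p = 0.0409). That BCL2L1 and MCL1 fell in MDA-MB-231 and were not called in SKOV3 therefore does not show that the lines responded differently.

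Beyond the 10 genes, 54 other genes of the apoptosis machinery were examined in 6 lists, all of them measured. In MDA-MB-231, 14 rose and 14 fell, where 14.4% of all genes rose and 11.7% fell, and in SKOV3, 5 rose and 11 fell, where 7.25% rose and 7.11% fell. The deposited values gave 6 rising and 20 falling in MDA-MB-231, where 7.26% of all genes rose and 17.9% fell. They gave 3 rising and 13 falling in SKOV3, where 3.83% rose and 14% fell. These shares of all genes are the background for the counts of each list.

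Of 9 apoptosome and caspase genes, 4 rose and 2 fell in MDA-MB-231, and 2 rose and 1 fell in SKOV3 (background 14.4% and 11.7%, and 7.25% and 7.11%). In the deposited values 2 rose and 2 fell in MDA-MB-231 and 1 of each in SKOV3. CASP2, an initiator caspase that can cleave BID, fell by 1.51 in MDA-MB-231 (adjusted p = 8.49e-05) and by 1.44 in SKOV3 (adjusted p = 0.000409). CASP8, the initiator caspase of death receptors, rose by 0.14 (adjusted p = 0.00357) and 0.15 (adjusted p = 0.00754), neither of which was called on the deposited values (-0.0031, adjusted p = 0.959, and 0.04, adjusted p = 0.533). Its SKOV3 call was lost without SKOV3 control replicate 1 (adjusted p = 0.0776). Of 7 genes for released mitochondrial proteins and channels, 4 rose and none fell in MDA-MB-231 by limma (background 14.4% and 11.7%), where at an unadjusted p under 0.05 there were 5 higher and 1 lower. None of the 7 was called in SKOV3, where 3 were higher and 0 lower at an unadjusted p under 0.05. At that unadjusted threshold lay 33.7% of all genes in MDA-MB-231 and 24.7% in SKOV3, both directions together. On the deposited values 1 rose and 1 fell in MDA-MB-231 and 1 rose in SKOV3.

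Of 8 genes of the death receptor arm, 2 rose and 3 fell in each line (background 14.4% and 11.7% in MDA-MB-231, 7.25% and 7.11% in SKOV3). In the deposited values none rose, while 5 fell in MDA-MB-231 (background 17.9%) and 3 in SKOV3 (background 14%). TNFRSF10B, the TRAIL receptor DR5, fell by 1.16 in MDA-MB-231 (adjusted p = 6.51e-05) and by 0.73 in SKOV3 (adjusted p = 0.00248). TNFRSF1A, the TNF receptor, fell by 0.63 (adjusted p = 0.000529) and 0.83 (adjusted p = 0.000499). CFLAR, an inhibitor of caspase 8, fell by 0.39 (adjusted p = 0.000180) and 0.40 (adjusted p = 0.000632). Of 6 inhibitors of apoptosis, none rose in either line by limma, also at an unadjusted p under 0.05 and on the deposited values, while 1 fell in MDA-MB-231 (background 11.7%) and 2 in SKOV3 (background 7.11%). In MDA-MB-231, 2 were lower at an unadjusted p under 0.05 (33.7% of all genes in either direction). In the deposited values 2 fell there (background 17.9%). BIRC3, a ubiquitin ligase that restrains cell death from TNF receptors, fell in both, by 0.62 in MDA-MB-231 (adjusted p = 0.00839) and by 1.17 in SKOV3 (adjusted p = 0.00131).

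Of 10 regulators of the family, 2 rose and 6 fell in MDA-MB-231, and none rose and 4 fell in SKOV3 (background 14.4% and 11.7%, and 7.25% and 7.11%). None was higher in SKOV3 by limma at an unadjusted p under 0.05 either. The deposited values gave 1 rising and 6 falling in MDA-MB-231, and none rising and 5 falling in SKOV3. USP9X, a deubiquitinase that stabilizes MCL1 protein, fell by 0.59 in MDA-MB-231 (adjusted p = 0.00257) and by 1.12 in SKOV3 (adjusted p = 0.000401). FOXO3, a transcription factor with BCL2L11 and BBC3 among its targets, fell by 0.57 (adjusted p = 0.00107) and 0.77 (adjusted p = 0.000926). PPP1R13B, which encodes ASPP1, fell by 0.24 (adjusted p = 0.0362) and 0.73 (adjusted p = 0.000629), and its MDA-MB-231 call was lost without any 1 of the 6 MDA-MB-231 arrays (adjusted p = 0.0713 to 0.106) and without SKOV3 miR-365a-3p replicate 3 (adjusted p = 0.0542). HUWE1, a ubiquitin ligase for MCL1 named here after its values were seen, fell by 0.16 (adjusted p = 0.0410) and 0.37 (adjusted p = 0.00268).

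Of 14 further BCL2 family genes, 2 rose and 2 fell in MDA-MB-231 (background 14.4% and 11.7%) and 1 of each in SKOV3 (background 7.25% and 7.11%), shares near the background. The deposited values gave 2 rising and 4 falling in MDA-MB-231, and 1 rising and 2 falling in SKOV3. The normalized SKOV3 calls were BNIP3, a mitophagy receptor that rose by 0.58 (adjusted p = 0.0152), and BOK, a BAX-like effector that fell by 0.54 (adjusted p = 0.00870), both named after their values were seen.

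**Figure D4:**
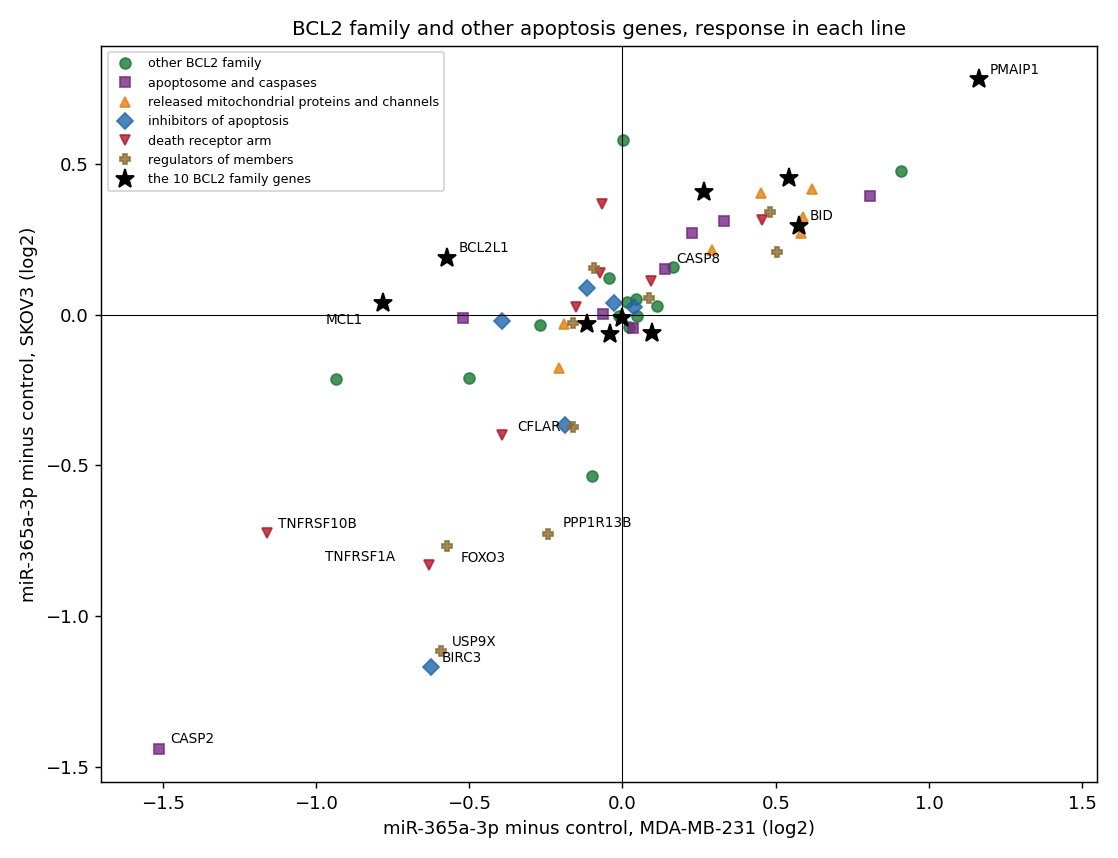
Log2 difference between miR-365a-3p and control in MDA-MB-231 (horizontal) and SKOV3 (vertical) for the 10 BCL2 family genes (stars) and 52 of the 54 other apoptosis genes in 6 lists (coloured symbols). PMAIP1 lies farthest right among the stars at 1.16 and 0.78, and CASP2 lies in the lower left at -1.51 and -1.44.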

How the data were processed

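The authors hybridized biotin-labelled cRNA, quantile normalized the data with lumi (version not given in the sources used here) and deposited a table of log2 values with gene symbols against arrays. The treatment of multiple probes and any background correction are not given in the sources used here. The 11 deposited columns were quantile normalized again in limma 3.58.1 (R 4.3.3) because they did not share a distribution. Group means were fitted with lmFit to all 31325 symbols and 4 groups, followed by contrasts, eBayes and Benjamini-Hochberg adjustment. The script was tested on simulated data. The number of arrays limits the precision. Samples were grouped by the labels' cell line and treatment. The family genes and all lists were chosen with earlier results of these data known. All 10 family genes were named, and from each list up to 3 genes called in both lines with the same sign and the largest mean size of change. Alternatives covered scaling, filter, variance model, array weights, replicate block, threshold and leaving out each array. Results of 2 of the 54 listed genes are not reported here.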

Additional observations from a re-analysis of the deposited data

How the results depend on the processing

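Of 756 values recomputed for the 10 genes under the alternatives, 660 kept their direction and their side of the threshold, 45 lost and 18 gained a call, and 33 changed sign, 1 of them a called value. The number of the 10 genes called in MDA-MB-231 was 7, and it was 4 with the replicate block, 3 at an adjusted p under 0.01 and 4 to 7 when each array was left out in turn. In SKOV3 it was 3, and it was 0 with each line fitted alone and 0 to 4 with each array left out. It was 1 without SKOV3 control replicate 1 and 0 without replicate 2. The difference between the lines gave 0 calls, 1 with array weights and 0 to 1 with each array left out, and the control lines gave 5, or 3 to 6 with each array left out. Shares of all genes called under these alternatives are not given beside the counts. A loss of calls particular to the 10 genes therefore cannot be read from them. Whether the replicate numbers pair the samples is not known. Deviations from the group means, compared between control and miR-365a-3p arrays of the same number, correlated at -0.12, 0.04 and 0.23 in MDA-MB-231. In SKOV3 these correlations were 0.04 and -0.07. Arrays of unlike number were not compared, so these values cannot settle the pairing. The replicate block was not run for the control lines.

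The only called values of a named gene to change sign were those of BAK1 (-0.0205) and CASP8 (-0.00313) in MDA-MB-231 on the deposited values. Uncalled values also changed sign. On the deposited values these were BCL2L1 (-0.0243) and MCL1 (-0.184) in SKOV3, BBC3 (-0.161) and BCL2L11 (-0.00949) in MDA-MB-231, and BAX (0.0681) and BAD (0.0319) between the control lines. With arrays centred on the median they were MCL1 (-0.146) and BCL2L11 (0.0127) in SKOV3, BBC3 (-0.128) in MDA-MB-231, BAD (0.00467) for the difference of responses, and BAX (0.0544), BAD (0.0182) and BCL2L11 (-0.00304) between the control lines. With cyclic loess they were MCL1 in SKOV3 (-0.0273) and BCL2L11 in MDA-MB-231 (-0.00023), with the replicate block MCL1 in SKOV3 (-0.0725), and with array weights BCL2L11 in MDA-MB-231 (-0.00269) and BBC3 between the control lines (-0.000416). With each array left out, MCL1 in SKOV3 ranged from -0.0727 to 0.141 and BCL2L11 in MDA-MB-231 from -0.0142 to 0.0095. The difference of responses ranged from -0.102 to 0.0355 for BAX, -0.211 to 0.0258 for BAD and -0.0217 to 0.00221 for BCL2L11. The difference between the control lines ranged from -0.0321 to 0.0164 for BAX, -0.0188 to 0.0279 for BBC3 and -0.00487 to 0.0127 for BCL2L11. Apart from the steps built into each alternative, the cause was not tested.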

Other observations

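In both lines miR-365a-3p replicate 1 gave the highest signal of its group for the same 6 of the 10 family genes, BAX, BAK1, BID, BAD, BBC3 and PMAIP1, and the lowest for MCL1 and BCL2L11. It also had the lowest 75th percentile of deposited values in its group, 7.56 in MDA-MB-231 and 7.67 in SKOV3. The part of that percentile in the values of these genes was not tested. Control replicate 2 of MDA-MB-231 gave the highest signal of its group for 7 of the 10 family genes. The share of all genes ordered in these ways was not determined.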
